A study of Homo sapiens with 6 samples.

Results

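The glycosyltransferases that build and extend glycans in the Golgi apparatus were examined in LX-2 cells after silencing of OGT. LX-2 is an established human line of hepatic stellate cell origin, the liver cells that become myofibroblasts in fibrosis. Members were found by gene symbol alone: C1GALT1, C1GALT1C1 and every symbol made of GALNT, GCNT, MGAT, B3GNT, B4GALT, B3GALT, ST3GAL, ST6GAL, ST6GALNAC, ST8SIA or FUT followed by a number. The count files held 78 such symbols among 16907, all of them protein-coding genes in the GENCODE 44 annotation of hg38. Of these, 12 had a total below 10 counts over all libraries and were set aside, which left 66 members in 12 families among 14853 genes tested.

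RNA had been sequenced 72 h after transfection with small interfering RNA at 20 nM, either a control (siControl, n = 3) or one directed against OGT (siOGT, n = 3). All libraries are from this 1 line in medium with serum. Libraries with the same replicate number were treated as pairs, as the study's methods do. Levels are given as CPM, the count of a gene scaled to a common library total, the same for every library, and corrected with a TMM factor. A gene was called when the adjusted p-value of the edgeR quasi-likelihood test with the replicate as a block was at most 0.05.

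OGT works in the cytosol and nucleus, where it adds a single N-acetylglucosamine to serines and threonines of proteins and the sugar is usually not extended. The enzymes described here work on the other side of a membrane, in the Golgi lumen, on proteins and lipids that travel to the cell surface. They draw on nucleotide sugars, among them UDP-N-acetylglucosamine, which is also the donor of OGT. Mucin-type O-glycans begin with the GALNT enzymes, which put N-acetylgalactosamine on serine or threonine. C1GALT1 then adds galactose to give the core 1 structure, with the help of its chaperone C1GALT1C1, and GCNT enzymes add a branch. On N-glycans, the MGAT enzymes set the number of antennae. The B3GNT, B4GALT and B3GALT enzymes lengthen chains with N-acetylglucosamine and galactose, and sialyltransferases and fucosyltransferases add the terminal sugars.

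Library totals lay between 25996770 and 27966801 counts, with TMM factors of 0.979 to 1.02, and between 15142 and 15546 genes had a value above 0. OGT, the silenced gene, was at 177.2, 137.1 and 121.2 CPM in siControl replicates 1 to 3 and at 39.9, 27.0 and 29.2 CPM in siOGT, which is -2.18 ± 0.07 on the log2 scale (SE, edgeR adjusted p = 2.71e-12). Summed stellate and myofibroblast markers, led by VIM, ranged from 6450.3 to 7655.6 CPM in siControl and from 5944.1 to 6786.8 CPM in siOGT, although LRAT, a marker of retinoid-storing stellate cells, had 2 counts over all libraries and DES had 17. The summed markers of hepatocytes (3.3 to 4.39 CPM), epithelial cells (4.79 to 8.37 CPM) and endothelial cells (3.06 to 7.69 CPM) were low in all libraries. The leukocyte list reached 130.6 to 158.6 CPM in siControl and 173.7 to 211.7 CPM in siOGT, most of it from CD68, a lysosomal protein gene that many cell types express, and its part in the results below was not tested.

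Of the 66 members, 12 were called (18.2%), against 25.4% of all genes tested. 3 members were called higher in siOGT (4.55%, against 12.7% of all genes) and 9 were called lower (13.6%, against 12.7%). In RNA from whole cultures, fewer cells expressing a gene and less RNA per cell cannot be told apart. The share of members called higher was thus below that of all genes, and the share called lower was near it. Low counts limited part of this comparison, since 19 members had a mean below 1 CPM and none of those was called. Among the 47 members with a mean of at least 1 CPM, 3 were called higher (6.38%, against 14.9% of genes at that level) and 9 lower (19.1%, against 15.0%). The log2 fold change was below 0 for 36 of these 47 (76.6%), against 49.7% of genes at that level. The median log2 fold change was -0.13 for these 47 members and 0.00 for all genes at that level. Changes were small: no called member changed 2-fold or more, and the median size of the change, without its sign, was 0.17 on the log2 scale for the 47 members and 0.16 for genes at that level. Calls depended on the pairing: with edgeR and no replicate block none of the 12 was called, although 7 members lower and 2 members higher had an unadjusted p below 0.05. DESeq2 called 7 of the 12 with the block and 3 without it (GALNT16, GALNT6 and ST6GALNAC4).

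**Figure D1:**
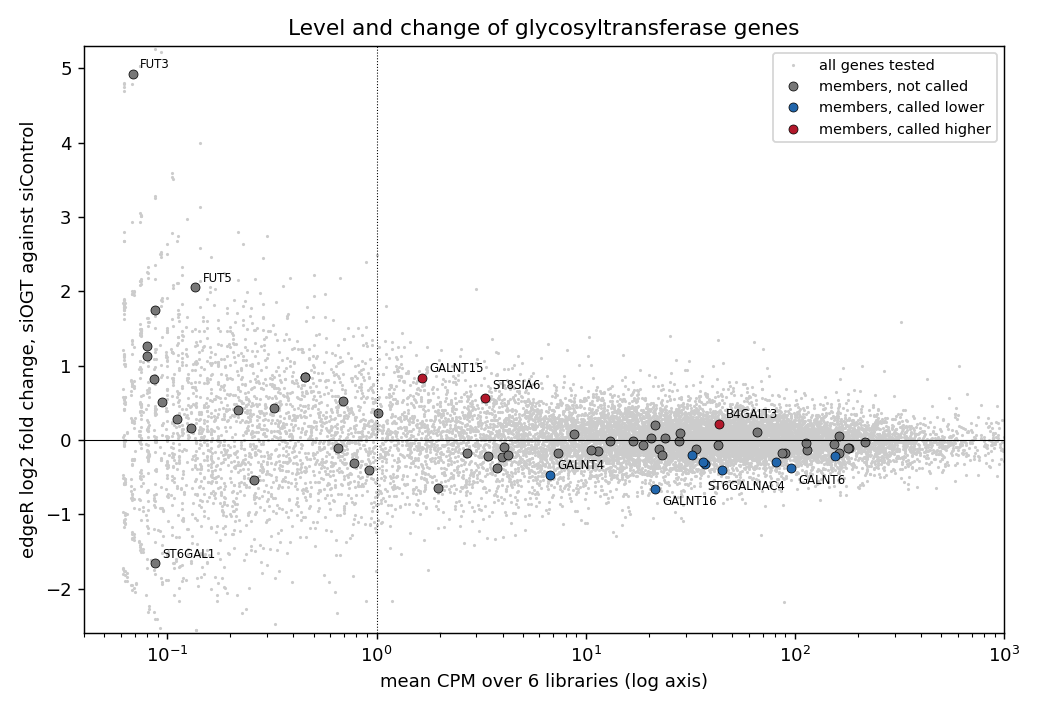
Mean CPM over the 6 libraries (horizontal, log axis) against the edgeR log2 fold change of siOGT against siControl (vertical) for the 66 members (large points, coloured where called) and all genes tested (small grey points, those beyond the axis ranges left out). The dotted line marks 1 CPM; called members lie to its right at changes of under 1 on the log2 scale, and the widest changes belong to members with few counts, such as FUT3 and ST6GAL1.

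The levels of the families differed widely. The summed level in siControl was highest for the MGAT family (755.0 ± 25.4 CPM, SD, n = 3), followed by the GALNT family (609.5 ± 24.2 CPM) and the B4GALT family (510.7 ± 28.8 CPM). The polysialic acid and disialyl enzymes of the ST8SIA family summed to 3.13 ± 0.62 CPM, and ST6GAL1, the enzyme that caps N-glycans with α2,6-linked sialic acid, had only 8, 1 and 2 counts in siControl and 1 count in each siOGT library. Most sialyltransferase RNA in these cells was therefore that of the ST3GAL and ST6GALNAC families. Per kilobase of annotated exons, genes of different length can be set side by side, but only approximately. The length covers the exons of all annotated transcripts of a gene, and which of them LX-2 cells use was not measured. On this scale the highest siControl levels among the members belonged to MGAT4B (39.7 CPM per kb), MGAT2 (35.4), B4GALT5 (33.2), B4GALT2 (29.1) and MGAT5B (28.7). All members together summed to 2499.3, 2639.3 and 2482.0 CPM in siControl and to 2287.1, 2505.7 and 2256.5 CPM in siOGT, and the 10 most abundant members held 62.7% of this. The sum was lower in siOGT within each pair, by log2 ratios of -0.13, -0.075 and -0.14, whereas the 2 groups overlapped because siOGT replicate 2 exceeded siControl replicates 1 and 3.

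**Figure D2:**
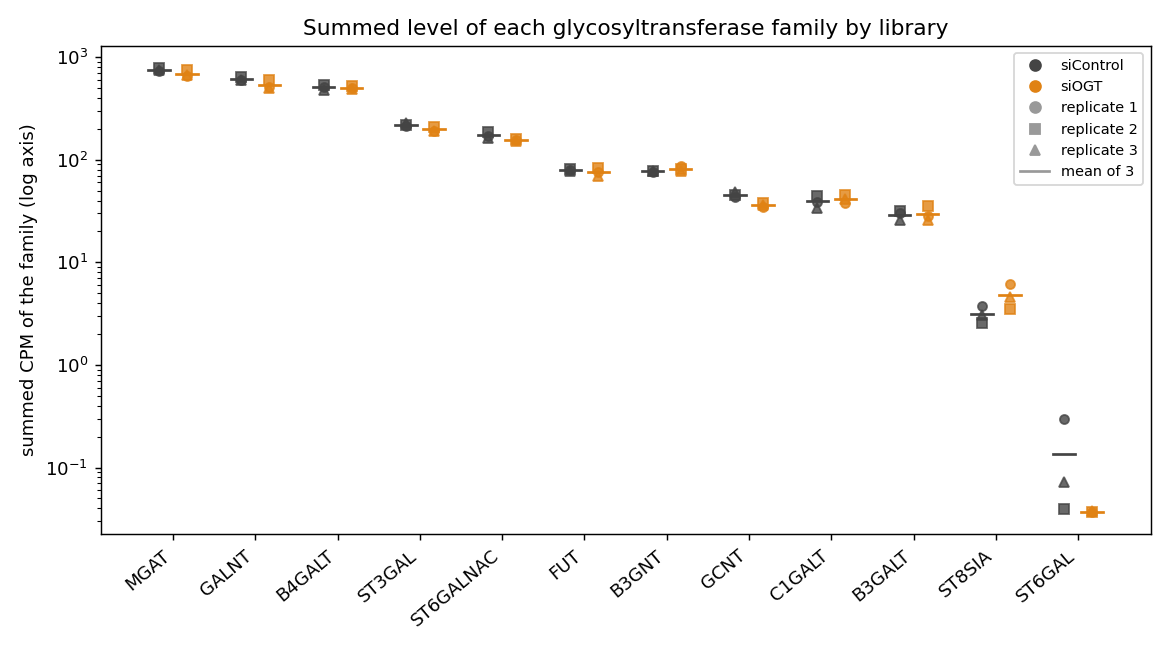
Summed CPM of each family (vertical, log axis) in the 3 siControl libraries (dark) and the 3 siOGT libraries (orange), with the mean of 3 as a bar and families ordered by their siControl mean. All 3 siOGT libraries are below all siControl libraries for the GCNT family (34.5 to 38.2 against 43.5 to 48.5 CPM), the ST3GAL family (191.5 to 210.3 against 213.9 to 226.4 CPM), the ST6GALNAC family (153.4 to 158.0 against 162.0 to 184.2 CPM) and, at a few counts, ST6GAL1, whereas the other families overlap between groups.

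The GALNT family, which starts mucin-type O-glycans, is the largest one here, and its calls were the most numerous. Of 13 members tested, 4 were called lower and 1 higher, where 12.7% of all genes tested were called in each direction. The log2 fold change was negative in 11 of the 13, where the median of all genes tested was 0.007. GALNT16, a less studied member of the family on chromosome 14 (69259277 to 69357033, plus strand, hg38), was at 29.4, 26.9 and 22.2 CPM in siControl and at 19.8, 16.4 and 13.6 CPM in siOGT. All 3 siOGT libraries were below all 3 siControl libraries. The log2 fold change was -0.66 ± 0.08 (SE, edgeR adjusted p = 2.56e-05), so the level fell by 36.7%, the largest called decrease among the members, with pair log2 ratios of -0.57, -0.71 and -0.70.

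GALNT6, an enzyme known to glycosylate fibronectin, was more abundant. Its level was 107.3, 111.2 and 106.5 CPM in siControl and 89.5, 84.5 and 76.9 CPM in siOGT. The siControl libraries lay close together and every siOGT library was below them. Counts of this gene were partly fractional. It fell by 22.9% (log2 fold change -0.38 ± 0.07, SE, edgeR adjusted p = 0.00056). GALNT11, which glycosylates Notch1 among other proteins, was at 33.3, 37.9 and 32.8 CPM in siControl and at 29.4, 31.2 and 29.3 CPM in siOGT. The groups did not overlap but were close, and the call was near the threshold (log2 fold change -0.21 ± 0.07, SE, edgeR adjusted p = 0.0457). It was lost with library totals in place of TMM scaling (adjusted p = 0.074), without replicate 1 (adjusted p = 0.156) and without replicate 2 (adjusted p = 0.217).

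GALNT4, an enzyme that prefers acceptors already carrying a sugar, fell outside the naming rule and was chosen after its values were seen. It was at 5.76, 9.35 and 8.46 CPM in siControl and at 5.78, 6.80 and 4.40 CPM in siOGT. Replicate 1 showed no difference and the other pairs were lower in siOGT. The log2 fold change was -0.47 ± 0.15 (SE, edgeR adjusted p = 0.0339), and it moved to -0.25 without replicate 3 (adjusted p = 0.296) and to -0.69 without replicate 1 (adjusted p = 0.00789). Its counts are uncertain: 5029 of its 5385 exonic bases are shared, on the same strand, with the read-through gene POC1B-GALNT4, and its deposited counts were fractional. The member called higher was GALNT15, a low-abundance member, at 0.973, 0.825 and 1.76 CPM in siControl and at 1.37, 2.56 and 2.42 CPM in siOGT. Each pair rose, but siOGT replicate 1 lay below siControl replicate 3. The increase of 0.84 ± 0.29 (log2, SE, edgeR adjusted p = 0.0421) rested on 21 to 69 counts a library, and it was not called without replicate 1 (adjusted p = 0.060) or without replicate 2 (0.48, adjusted p = 0.363).

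GALNT2, the most abundant member of the family and a broad initiator of O-glycans, was at 182.8, 204.4 and 176.7 CPM in siControl and at 160.0, 202.7 and 163.2 CPM in siOGT. The groups overlapped, and the change of -0.11 ± 0.07 (SE) was not called (edgeR adjusted p = 0.258; 95% interval -0.24 to 0.03). GALNT10, named after its values were seen, was at 170.0, 172.3 and 173.2 CPM in siControl and at 144.3, 171.0 and 141.9 CPM in siOGT. Replicate 2 hardly differed, and the gene was called when that replicate was left out (log2 fold change -0.26, edgeR adjusted p = 0.0172) but not with all pairs (-0.18 ± 0.07, SE, adjusted p = 0.0681). The fit without replicate 2 took the spread of each gene from a trend over all genes, unlike the fit with all pairs, so the 2 p-values are not fully comparable. GALNT1, GALNT3 and GALNT7 had log2 fold changes of -0.02 to 0.03. The family sum went from 609.5 ± 24.2 to 535.9 ± 50.9 CPM (SD, n = 3).

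**Figure D3:**
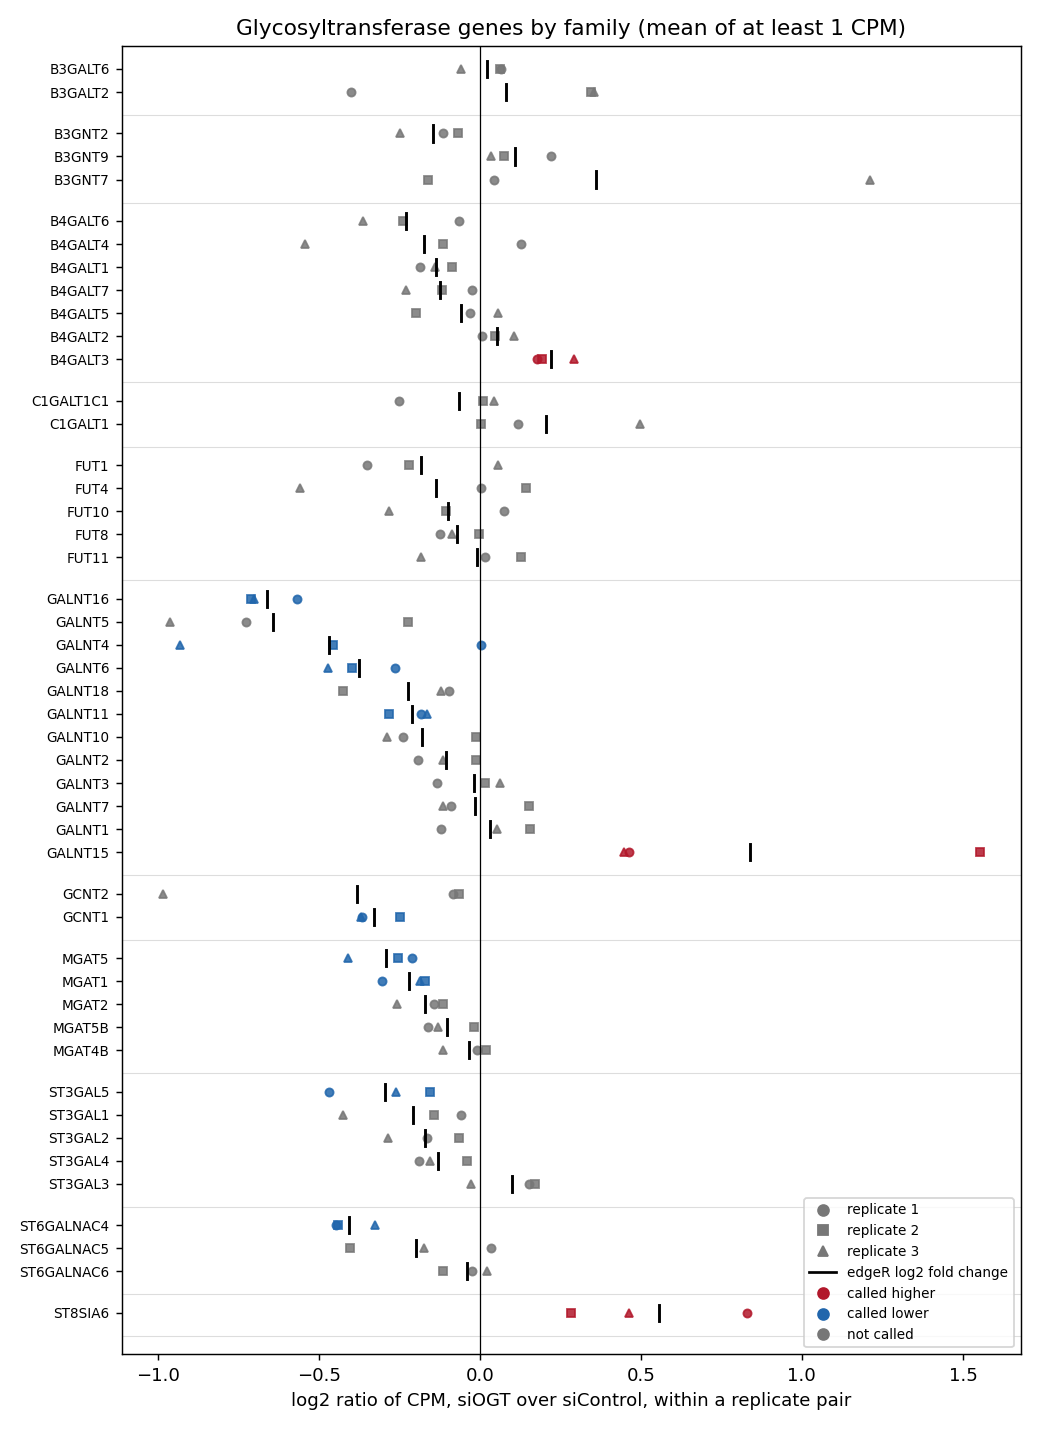
Log2 ratio of CPM, siOGT over siControl, within each replicate pair (circles, squares and triangles for replicates 1, 2 and 3) and the edgeR log2 fold change (black bar) for the 47 members with a mean of at least 1 CPM, grouped by family. Points of called members are blue where lower and red where higher; in the FUT, MGAT, GCNT and ST6GALNAC families all bars lie below 0, although no FUT member was called, and GALNT15 stands apart from the rest of its family.

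Of the enzymes of the next steps of O-glycan synthesis, GCNT1 was called and the C1GALT1 pair was not. C1GALT1, the core 1 galactosyltransferase, was at 20.7, 22.5 and 16.9 CPM in siControl and at 22.5, 22.6 and 23.9 CPM in siOGT. The groups met at about the same level in replicate 2 and differed mainly in replicate 3, and the log2 fold change of 0.20 ± 0.10 (SE) was not called (edgeR adjusted p = 0.127). Without replicate 2 it was 0.30 and called (adjusted p = 0.0323), in the fit that took the spread of each gene from a trend over all genes. Without replicate 3 it was 0.055 (adjusted p = 0.721). C1GALT1C1, its chaperone in the endoplasmic reticulum, was at 18.4, 22.1 and 16.8 CPM against 15.4, 22.2 and 17.3 CPM, or -0.06 ± 0.09 on the log2 scale (SE, adjusted p = 0.661). Its sign turned without replicate 1 (0.03).

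GCNT1, the enzyme that adds the core 2 branch to core 1, held 90.2% of its family's summed siControl level. It was at 39.2, 40.9 and 43.2 CPM in siControl and at 30.5, 34.4 and 33.5 CPM in siOGT. All siOGT libraries were below all siControl libraries. The level fell by 20.3% (log2 fold change -0.33 ± 0.07, SE, edgeR adjusted p = 0.00299). GCNT2, which makes the branched I antigen, was lower in each pair but was not called (-0.38 ± 0.20, SE, adjusted p = 0.175), and almost all of its difference came from replicate 3.

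The ST6GALNAC enzymes attach α2,6-linked sialic acid to the innermost sugar of O-glycans or to gangliosides. Of the 5 members tested, 1 was called lower, where 12.7% of all genes tested were. The log2 fold change was negative in all 5, where the median of all genes tested was 0.007, but only 3 of the 5 had a mean of at least 1 CPM. ST6GALNAC4, which acts on sialylated core 1 and is encoded on chromosome 9 (127907886 to 127917041, minus strand, hg38), was at 49.5, 56.1 and 47.6 CPM in siControl and at 36.3, 41.4 and 37.9 CPM in siOGT. The lowest siControl library was above the highest siOGT library. Its level fell by 24.5% (log2 fold change -0.40 ± 0.07, SE, edgeR adjusted p = 0.00044). ST6GALNAC6, the most abundant member and a ganglioside enzyme encoded beside it, was at 117.1, 119.6 and 108.3 CPM in siControl and at 115.2, 110.4 and 109.9 CPM in siOGT. Its groups overlapped, and the change was -0.04 ± 0.06 (log2, SE, edgeR adjusted p = 0.711; 95% interval -0.17 to 0.10). Its counts were partly fractional, and 2494 of its 5307 exonic bases are shared on the same strand with another annotated gene.

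In the MGAT family, which branches N-glycans, 2 of 7 members tested were called, both lower, where 12.7% of all genes tested were called lower. MGAT1 commits an N-glycan to the hybrid and complex types, and it was at 171.0, 164.7 and 166.0 CPM in siControl and at 138.6, 146.4 and 146.1 CPM in siOGT. The groups were well apart. The level fell by 14.1% (log2 fold change -0.22 ± 0.06, SE, edgeR adjusted p = 0.0189), and without replicate 1 the change was no longer called (-0.18, adjusted p = 0.251). MGAT2, which starts the next antenna, was lower in each pair without being called (-0.17 ± 0.07, SE, adjusted p = 0.0626).

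MGAT5 adds the β1,6 branch on which long poly-N-acetyllactosamine chains and galectin ligands are often built. It was at 94.8, 88.7 and 84.1 CPM in siControl and at 82.0, 74.4 and 63.3 CPM in siOGT. Every siOGT library was below every siControl library, the gap being narrow between siOGT replicate 1 and siControl replicate 3. It fell by 18.2% (log2 fold change -0.29 ± 0.07, SE, edgeR adjusted p = 0.00407). MGAT4B, which adds the β1,4 branch on the other arm and was the most abundant member of the whole set, was at 199.4, 229.4 and 226.1 CPM in siControl and at 198.1, 232.8 and 208.8 CPM in siOGT. Its groups overlapped (log2 fold change -0.03 ± 0.07, SE, edgeR adjusted p = 0.748; 95% interval -0.17 to 0.10). MGAT3, which adds the bisecting sugar, had only 14 counts over the 6 libraries.

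Among the enzymes that extend chains, calls were few. The B4GALT family, which adds β1,4-linked galactose, had 1 of 7 members called, and that one was higher, where 12.7% of all genes tested were called higher. B4GALT3 was at 37.4, 43.3 and 39.4 CPM in siControl and at 42.4, 49.5 and 48.3 CPM in siOGT. Each pair rose, but siOGT replicate 1 lay below siControl replicate 2. Its log2 fold change was 0.22 ± 0.07 (SE, edgeR adjusted p = 0.0266). It was not called when any one replicate was left out, with adjusted p-values of 0.109, 0.062 and 0.097 without replicates 1, 2 and 3. On the opposite strand, 1118 of its 3890 exonic bases overlap PPOX, and the counting was strand-specific per the study's methods. B4GALT2, the most abundant member of the family, was at 158.5, 160.9 and 157.7 CPM in siControl and at 159.4, 166.3 and 169.6 CPM in siOGT, and its change was 0.05 ± 0.06 (log2, SE, edgeR adjusted p = 0.590).

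The B3GNT enzymes add the β1,3-linked N-acetylglucosamine of poly-N-acetyllactosamine and related chains. None of the 6 B3GNT members and none of the 4 B3GALT members was called, where 25.4% of all genes tested were. Only 3 of these B3GNT and 2 of these B3GALT members had a mean of at least 1 CPM, so low counts limited this comparison. B3GNT9 held 82.8% of its family's siControl level and changed by 0.11 ± 0.07 (log2, SE, edgeR adjusted p = 0.253), which was not called. B3GNT7, a keratan sulfate enzyme, was near 1 CPM, and its value of 0.36 ± 0.36 (SE) turned to -0.08 without replicate 3. B3GALT6, which builds the linker of proteoglycans, was at 0.02 ± 0.08 (SE, adjusted p = 0.871). B3GALT2 varied between experiments more than between groups, at 11.6, 9.70 and 4.48 CPM in siControl and at 8.77, 12.3 and 5.74 CPM in siOGT, and its value of 0.08 ± 0.14 (SE) became -0.07 without replicate 2 and -0.03 without replicate 3.

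Among the capping enzymes, ST3GAL5 was called lower and ST8SIA6 higher. ST3GAL5, the GM3 synthase that opens the ganglioside series, was at 40.7, 42.9 and 36.6 CPM in siControl and at 29.4, 38.6 and 30.5 CPM in siOGT. Each pair fell, but siOGT replicate 2 was above siControl replicate 3. The log2 fold change was -0.29 ± 0.08 (SE, edgeR adjusted p = 0.0102), and without replicate 1 it was -0.21 and not called (adjusted p = 0.183). ST3GAL2, the most abundant ST3GAL and a sialyltransferase of core 1 and gangliosides, was at 88.5, 91.6 and 95.1 CPM in siControl and at 79.1, 87.6 and 78.1 CPM in siOGT. Its groups did not overlap, yet the change was not called (-0.17 ± 0.07, SE, edgeR adjusted p = 0.0708).

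ST8SIA6, which adds a second sialic acid to O-glycans, was scarce, at 3.07, 2.12 and 2.69 CPM in siControl and at 5.52, 2.60 and 3.73 CPM in siOGT. Each pair rose, with overlap between siOGT replicate 2 and siControl. The log2 fold change was 0.56 ± 0.19 (SE, edgeR adjusted p = 0.0386). It lost its call without replicate 1 (0.39, adjusted p = 0.372) and without replicate 3 (0.60, adjusted p = 0.0727).

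**Figure D4:**
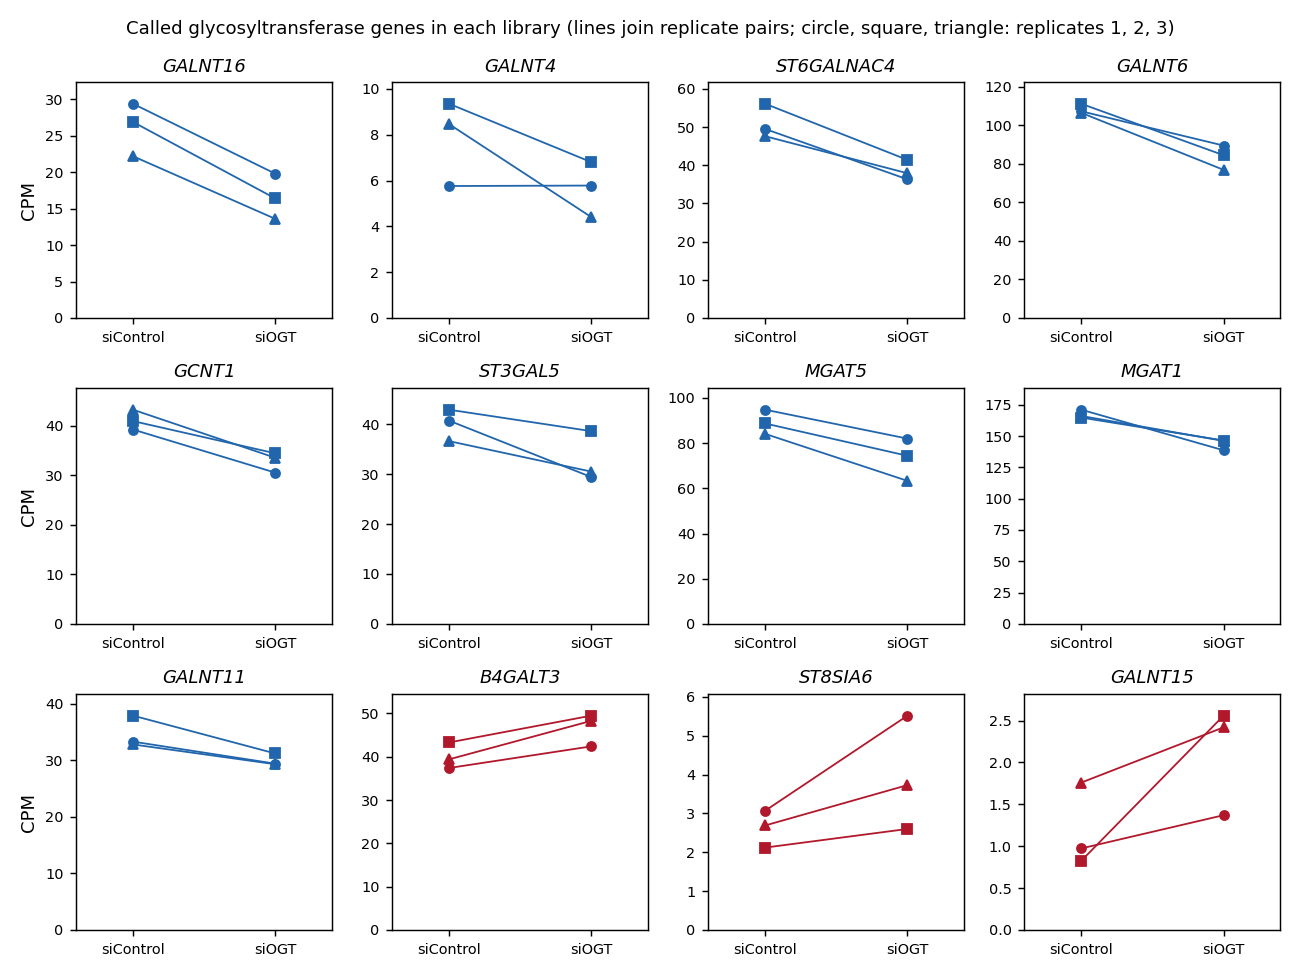
CPM (vertical, from 0) of the 12 called members in each library, with siControl on the left and siOGT on the right of each panel and a line for each replicate pair (circle, square and triangle for replicates 1, 2 and 3), blue where lower and red where higher. The lines of GALNT16, GALNT6, ST6GALNAC4, GCNT1, MGAT5, MGAT1 and GALNT11 fall without overlap of the groups, whereas replicate 1 of GALNT4 is flat. The panels were chosen by the calls on these same values, and the share of all genes without overlap was not counted.

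None of the 8 fucosyltransferases tested was called, where 25.4% of all genes tested were called in either direction. Only 5 of the 8 had a mean of at least 1 CPM, so low counts limited this comparison. FUT8, which puts the core fucose on N-glycans and held 55.3% of the family's siControl level, was at 42.4, 45.8 and 42.8 CPM in siControl and at 38.9, 45.8 and 40.3 CPM in siOGT (log2 fold change -0.07 ± 0.07, SE, edgeR adjusted p = 0.504). FUT1, which makes the H antigen, had a value of -0.18 ± 0.20 (SE, adjusted p = 0.567). The Lewis-type fucosyltransferase genes FUT3, FUT5 and FUT6, similar in sequence and neighbours on chromosome 19, were almost silent in siControl and are named here after their values were seen. FUT3 had 0 counts in each siControl library and 3, 3 and 5 counts in siOGT, and was not called (edgeR adjusted p = 0.0681). Against a chosen floor of 3 counts over the siControl group this is 3.69-fold, a value that takes the few siOGT counts as exact. The gene passed the filter on total counts through its siOGT libraries alone. FUT5 had 2, 1 and 1 counts against 5, 7 and 6 (adjusted p = 0.131). FUT6, which was set aside for its low total, had 0, 0 and 0 counts against 4, 1 and 1.86. Counts were higher in siOGT for all 3 genes, at under 0.3 CPM in any library. Reads from such similar genes can be divided between them, although the deposited counts of FUT3 and FUT5 were whole numbers. Of the 1992 exonic bases of FUT5, 1643 are shared on the same strand with another annotated gene.

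The 11 other genes set aside had totals of 3 to 9 counts. They were B3GALT1, B3GNT3, B3GNT4, FUT7, GALNT8, GALNT9, GCNT3, MGAT4C, ST6GAL2, ST6GALNAC1 and ST8SIA2. MGAT4C had no count in siControl and 2, 4 and 2 counts in siOGT, and the others were spread over both groups or, for ST8SIA2, seen in siControl only.

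The bases just upstream of the start were read for the called members from the RefSeq promoter windows of GRCh38.p14, cut to the 250 bases before each start. 48 of the 66 members had a window, 83 windows in all, as had 9 of the 12 called ones. Shown are the 2 called members with a single window that no annotated exon overlaps, 1 called lower and 1 called higher, with GC boxes (GGGCGG, either strand) in capitals. The ST6GALNAC4 window lies at chr9:127917042-127917291 on the minus strand, and the GALNT15 window at chr3:16174430-16174679 on the plus strand.
ST6GALNAC4: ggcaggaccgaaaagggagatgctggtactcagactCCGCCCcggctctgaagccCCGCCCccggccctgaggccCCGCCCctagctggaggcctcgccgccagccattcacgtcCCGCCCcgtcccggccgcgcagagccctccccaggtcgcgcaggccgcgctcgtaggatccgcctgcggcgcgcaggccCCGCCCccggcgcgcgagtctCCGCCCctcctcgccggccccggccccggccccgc
GALNT15: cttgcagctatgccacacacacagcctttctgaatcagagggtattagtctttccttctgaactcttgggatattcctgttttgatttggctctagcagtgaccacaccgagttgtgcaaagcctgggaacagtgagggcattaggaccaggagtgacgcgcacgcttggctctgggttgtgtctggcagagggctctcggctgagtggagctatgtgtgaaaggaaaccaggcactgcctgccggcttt

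The ST6GALNAC4 window holds 6 GC boxes in 79.2% G and C, and the GALNT15 window holds none in 53.2%. A GC box was found in 52 of the 83 member windows (62.7%), against 42.6% of 35116 windows of the same length. The median G and C content was 65.2% in member windows and 58.0% in all windows. CCAAT, searched on both strands, was in 30.1% of member windows and 32.0% of all. The E-box CACGTG was in 6.02% and 6.34%, the Golgi stress element ACGTGGC, which can share bases with an E-box, in 4.82% and 2.78%, the TEAD motif GGAATG in 9.64% and 11.9%, and the ETS motif CCGGAAG in 4.82% and 8.52%. Of the 9 called members with a window, 7 held a GC box in at least 1 window, 3 held CCAAT, none held the E-box, and 2 each held the Golgi stress element (MGAT1 and ST3GAL5), the TEAD motif (GALNT11 and MGAT5) and the ETS motif (GCNT1 and MGAT1). These counts of called members are per gene, over any of its windows, and are not comparable with the shares of windows above. Such matches are descriptions of letters, several genes have more than 1 window, and which start is used in LX-2 was not measured.

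The other genes of the glycosylation pathway were described from 6 lists of 124 genes, of which 123 were tested, 17 were called higher (13.8%) and 14 lower (11.4%), near the 12.7% of all genes tested in each direction. Of the 27 glycosyltransferases outside the symbol pattern that were tested, 2 were called higher (7.41%) and 7 lower (25.9%). LFNG, a fringe enzyme that extends O-fucose on Notch receptors, went from 9.66 ± 2.27 to 5.64 ± 0.90 CPM (SD, n = 3, log2 fold change -0.77, edgeR adjusted p = 0.000299). POFUT2, which puts O-fucose on thrombospondin repeats, went from 75.0 ± 10.2 to 93.9 ± 15.3 CPM (0.32, adjusted p = 0.00153). UGCG, the glucosylceramide synthase upstream of ST3GAL5, was also called higher (0.28, adjusted p = 0.00333), and B4GALNT1, the GM2 synthase downstream of it, was called lower (-0.43, adjusted p = 0.000124). Both were chosen after their values were seen.

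Of the 22 Golgi tethers, the COG complex and golgins that keep glycosylation enzymes in place, 5 were called higher (22.7%, against 12.7% of all genes tested) and none lower (against 12.7%). They were GOLGA1 (log2 fold change 0.54, edgeR adjusted p = 3.59e-05), COG3 (0.30, adjusted p = 0.0133), COG1 (0.26, adjusted p = 0.00738), TRIP11 (0.21, adjusted p = 0.0457) and COG4 (0.18, adjusted p = 0.0496), of which COG1, COG3 and TRIP11 were named after their values were seen. COG4 was not called when any one replicate was left out, with adjusted p-values of 0.199, 0.125 and 0.113. Without replicate 1, only 1 tether was called.

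Of the 23 nucleotide sugar synthesis genes, 5 were called higher (21.7%) and 4 lower (17.4%), where 12.7% of all genes tested were called in each direction. UAP1L1, a homologue of the enzyme that makes UDP-N-acetylglucosamine, rose from 49.7 ± 12.2 to 97.4 ± 27.1 CPM (SD, n = 3, log2 fold change 0.96, edgeR adjusted p = 5.27e-08), and UGDH, which makes UDP-glucuronic acid, fell from 34.5 ± 0.99 to 25.5 ± 1.86 CPM (-0.44, adjusted p = 0.000409). Of the 14 genes listed as Golgi nucleotide sugar transporters, SLC35D1 (0.30, edgeR adjusted p = 0.0177) and SLC35D2 (0.25, adjusted p = 0.0188) were called higher and none lower. The share called higher, 14.3%, was near that of all genes. SLC35D1 lost its call without replicate 1 (adjusted p = 0.106) and without replicate 2 (0.0571), and SLC35D2 without replicate 1 (0.0923) and without replicate 3 (0.0858). Of the 13 N-glycan trimming enzymes, 2 were called higher (15.4%, near the share of all genes) and 1 lower (7.69%). EDEM3, called higher, was at 0.36 (edgeR adjusted p = 0.00385). MANEA, called lower, was at -0.38 (adjusted p = 0.00503) and was not called without replicate 1 (0.0553). Of the 24 genes that assemble the N-glycan precursor and transfer it to proteins, 4.17% were called higher and 8.33% lower. ALG3 was called higher (0.39, edgeR adjusted p = 0.00549) and 2 were called lower, among them the oligosaccharyltransferase subunit gene MAGT1 (-0.23, adjusted p = 0.0162). ALG3 was not called without replicate 3 (0.18, adjusted p = 0.0539), and MAGT1 not without replicate 1 (adjusted p = 0.209). The median log2 fold change was 0.08 for the tethers, 0.04 for the transporters, 0.01 for nucleotide sugar synthesis, -0.03 for trimming, -0.04 for precursor assembly and -0.05 for the other glycosyltransferases.

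**Figure D5:**
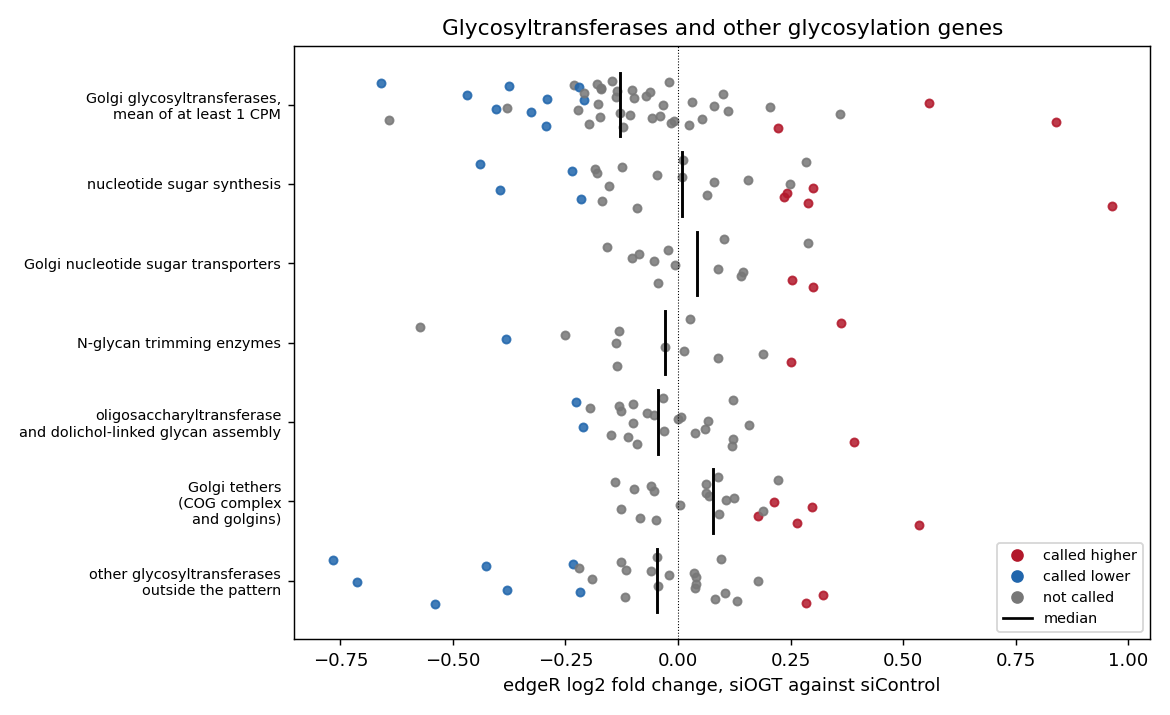
The edgeR log2 fold change of siOGT against siControl (horizontal) for each gene of the 47 Golgi glycosyltransferases at 1 CPM or more on average and of the 6 other lists (rows, with points spread vertically only for legibility), with the median of each as a black bar and called genes in blue (lower) or red (higher). The median is -0.13 for the Golgi glycosyltransferases and 0.08 for the Golgi tethers, whose called genes all lie above 0.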

How the data were processed

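RNA from 3 siControl and 3 siOGT cultures had been enriched with oligo-dT and sequenced paired-end with strand information. Per the study's methods, the authors aligned the reads to hg38 with Bowtie2 2.3.5.1 and deposited RSEM 1.3.1 expected counts per gene, which are estimated counts, not normalized, in which a read that fits several genes is divided. Between 85.8% and 87.7% of values in a library were exactly whole numbers as deposited, with no tolerance. 15 members had fractional counts in at least 1 library. The authors' own table of DESeq2 1.36.0 results, which holds mean levels, log2 fold changes and adjusted p-values, was not used.

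Here expected counts were rounded to whole numbers, genes with a total below 10 were removed, and libraries were scaled with TMM. The test was edgeR's quasi-likelihood F test, two-sided (edgeR 4.0.16, R 4.3.3), with the replicate as a block as in the study's methods and Benjamini-Hochberg adjustment over 14853 genes. The study's methods pair same-numbered libraries. Their deviations from the group means correlated at 0.688, 0.525 and 0.332 over 12373 genes. Log2 ratios within a pair used a prior count of 2. Members were named where called at a mean of at least 1 CPM with 1 sign in all pairs, where most abundant in a family at any level, or, in families with no call, where the change was largest at 1 CPM or more. The C1GALT1 pair and the called genes with the highest and lowest change in each other list were added. Members named outside this rule, among them B4GALT5, GALNT1, GALNT3, GALNT7, GCNT2, MGAT2, MGAT3 and MGAT5B, were chosen after their values were seen. The members and lists were chosen with earlier results of these data known. Counts of 14713 genes were simulated with 100 genes changed 1.5-fold and 100 changed 2-fold. The fit recovered 90% of the former and 98% of the latter, and 6.47% of its calls were false. Changes below 1.5-fold, which most called members showed, were not simulated. The simulated share of changed genes was also far below the 25.4% called in the data. These rates therefore do not measure recovery or false calls for the results above. Alternatives were DESeq2 1.42.0, other scalings and filters, no block, and leaving out each replicate. Coordinates and exonic bases are from GENCODE 44. P-values measure the spread between these cultures of 1 line.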

Additional observations from a re-analysis of the deposited data

How the results depend on the processing

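The replicate block decided many calls. With edgeR and no replicate block, 0 members were called higher and 0 lower, against 3 and 9 with it, and in the 6 other lists 1 gene was called higher and 0 lower, against 17 and 14. DESeq2 with the replicate block gave 0 members higher, and 8 genes higher and 9 lower in the other lists. DESeq2 with no replicate block, an alternative chosen after seeing the data, gave 0 members higher and 3 lower, and 2 genes higher and 4 lower in the other lists. Leaving out each replicate in turn gave 0 to 2 members higher, 6 to 9 members lower, 6 to 15 other genes higher and 6 to 12 other genes lower, with the lowest counts without replicate 1. All 12 called members kept their sign under each of the 10 alternatives, GALNT16, GALNT6 and ST6GALNAC4 were called under 9 of the 10, and OGT (-2.25 to -2.11) under all 10. Only some of the members not called were followed under the alternatives. Among those followed, the signs of C1GALT1C1, B3GALT2, B3GNT7 and GALNT1 turned. Over the fits without 1 replicate, C1GALT1C1 ranged from -0.122 to 0.025 (log2) and B3GALT2 from -0.072 to 0.349. B3GNT7 ranged from -0.078 to 0.669 and GALNT1 from -0.036 to 0.104, and B3GALT2 was at -0.030 without replicate 3. Median-ratio scaling, no filter on low counts and the filterByExpr filter kept all 12 calls, and library totals alone kept 11. The median log2 fold change over members lay between -0.12 and -0.06. The causes of these changes were not tested. Depth limits the 19 members below 1 CPM, whose standard errors on the log2 scale ran from 0.34 to 1.89.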
